A study of Bos taurus with 8 samples.

Results

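Solute carriers are the membrane proteins that move sugars, amino acids, ions, metals, nucleosides and vitamins across the plasma membrane and the membranes of organelles. They were taken here as every gene whose symbol in the array's platform annotation has the form SLC, a family number, A and a member number, without the mitochondrial SLC25A family. The rule used names only and no measured value. It found 250 genes, carried by 323 probes, among the 15225 genes with a symbol on the array, and 204 of them had a single probe.

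The measurements come from bovine 2-cell embryos produced in vitro from slaughterhouse Holstein ovaries and fertilized with pooled semen of 5 bulls. Embryos collected at 29.5 hours post-fertilization (hpf), the rapidly cleaving ones of the series, were compared with embryos collected at 46 hpf, and both groups had the same maturation, fertilization and culture. Their amplified RNA was hybridised together on 8 two-colour EmbryoGENE arrays, in 4 labelled replicates that each appear with 29.5 hpf in Cy5 and with 46 hpf in Cy5. The sources used here do not give how many embryos each sample held, and time of collection and speed of cleavage cannot be told apart in this design. Fewer cells of a type and less RNA per cell cannot be told apart either in such whole-embryo RNA.

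Transport has particular weight at this stage. Before its genome is fully active, the embryo lives on stored maternal messenger RNA, takes up pyruvate and lactate rather than much glucose, and uses glycine and betaine as osmolytes to control cell volume, as worked out mainly in the mouse. Zinc enters the cytosol through the SLC39A carriers (ZIP) and leaves it, for the outside or for vesicles, through the SLC30A carriers (ZnT). Many amino acid carriers of the SLC7A family work only when joined to a heavy chain of the SLC3A family, and the lactate carriers of the SLC16A family need a chaperone to reach the membrane.

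Ratios are given on the log2 scale, with 29.5 hpf in the numerator and 46 hpf in the denominator. Probes entered the test if either group's channel exceeded the negative control spots on 4 or more of 8 arrays, which held for 246 of the 323 carrier probes (76.2%) and for 75.3% of all 43794 probes. A gene is described by its brightest tested probe, and 201 of the 250 carrier genes had one. The number of arrays limits the precision. Over all probes, median raw signals ranged from 152.1 to 343.8 for Cy5 and from 128.5 to 195.7 for Cy3. All 10 oocyte and early embryo markers with a probe were above the negative controls on all 8 arrays in both groups, and none of 4 sperm markers was. Of 13 cumulus and granulosa cell markers, 8 were above the controls on all arrays in both groups, and their median log2 ratio was -0.04 with a range from -1.28 to 0.67. SERPINE2 alone among them was called, lower at 29.5 hpf (limma, adjusted p = 0.0227), and the part of such cells in the carrier results was not tested.

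Few carriers differed between embryos collected at 29.5 hpf and at 46 hpf. When dye-swapped arrays of the same labelled number were averaged, 3 of the 246 carrier probes were higher at 29.5 hpf (1.22%) and 0 were lower, by limma with an adjusted p under 0.05. Over all 32989 tested probes the shares were 0.624% higher and 0.53% lower, so calls were rare among the carriers as among the rest. At an unadjusted p under 0.05 there were 36 carrier probes (14.6%), 18 in each direction, against 16.4% of all tested probes. The called genes were SLC18A2, SLC12A9 and SLC39A14, and their calls changed with the treatment of the dye-swapped arrays, as given after their values.

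SLC18A2 encodes the transporter that loads serotonin, dopamine and other monoamines into vesicles. Its brightest probe had replicate values of 1.09, 0.62, 0.86 and 0.71, a mean log2 ratio of 0.82 ± 0.21 (SD, n = 4; 1.77-fold), and limma gave it an adjusted p of 0.0394. All 8 arrays were above 0. The normalised log2 intensities ran from 11.11 over a median of 11.92 to 12.58 at 29.5 hpf, and from 10.27 over 11.07 to 11.58 at 46 hpf. The groups thus overlapped across arrays, while within each array the 29.5 hpf channel was the brighter one. Another probe of the gene stood at 0.55 ± 0.20 and the remaining, dimmer one at -0.12 ± 0.26 (SD, n = 4), and neither passed.

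SLC12A9 is a member of the cation-chloride cotransporter family whose substrate is not settled. Its replicate values were 0.60, 0.39, 0.65 and 0.82, with a mean log2 ratio of 0.61 ± 0.18 (SD, n = 4; 1.53-fold) and a limma adjusted p of 0.0489. These means cover unequal arrays. With 29.5 hpf in Cy5 the arrays gave 0.89, -0.46, 0.18 and 0.40, and with 46 hpf in Cy5 they gave 0.30, 1.24, 1.12 and 1.24, so the mean was 0.25 in the first dye orientation and 0.98 in the second. A second probe of SLC12A9 lay at 0.01 ± 0.13 (SD, n = 4).

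SLC39A14, a ZIP carrier that imports zinc, iron and manganese, had replicate values of 0.47, 0.45, 0.61 and 0.40. Its mean log2 ratio was 0.48 ± 0.09 (SD, n = 4; 1.40-fold) with a limma adjusted p of 0.0452, and all 8 arrays were above 0. Its normalised log2 intensities ran from 9.28 over a median of 9.38 to 9.74 at 29.5 hpf, against 8.72, 8.95 and 9.19 at 46 hpf. These levels did not overlap between the groups. The other tested probes of the gene, both dimmer, were at 0.11 ± 0.27 and 0.09 ± 0.11 (SD, n = 4).

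The labelled numbers did not match all dye-swapped arrays. Array 1 of the orientation with 29.5 hpf in Cy5 had a Pearson r over probes of 0.67 with array 2 of the other orientation, but of 0.04 with its own number. For numbers 3 and 4 the r within a number was 0.62 and 0.72. Probes are not independent replicates, and these arrays share probes and dyes. After exchanging numbers 1 and 2 in the orientation with 46 hpf in Cy5, 0 of 246 carrier probes passed limma, against 0.0121% of all tested probes, and 29 carrier probes (11.8%) had an unadjusted p under 0.05, against 12.4% of all. The adjusted p was then 0.0996 for SLC18A2, 0.302 for SLC12A9 and 0.218 for SLC39A14. The means did not move, but the SD of SLC39A14 was then 0.28 and that of SLC12A9 0.49, while SLC18A2 stayed near its labelled spread at 0.23. Every SD in this text is that of the labelled numbers unless stated.

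When the 8 arrays were kept apart and the number entered limma as a random block, more probes passed over the whole array. With the labelled numbers as block, 7 carrier probes were higher (2.85%) and 4 lower (1.63%), against 2.49% higher and 2.49% lower of all tested probes. With the exchanged numbers as block, chosen after seeing the data, 6 were higher (2.44%) and 2 lower (0.813%), against 1.69% higher and 1.57% lower of all. SLC18A2 (limma adjusted p = 0.00507 and 0.013) and SLC39A14 (0.0318 and 0.0388) passed with both blocks, and SLC12A9 (0.143 and 0.205) with neither. SLC41A2, SLC16A3, SLC26A6 and SLC6A4, above 0, and SLC20A1 and SLC22A5, below 0, passed with both blocks and not when arrays were averaged. Such a fit takes arrays of 1 number as partly separate samples, so the averaged fit remains the one by which genes are called here. The averaged fit has a limit of the same kind. Arrays 1 and 2 correlated across numbers (r of 0.67 and 0.52) and hardly within them (0.04 and 0.05). Labelled averages 1 and 2 may thus not be separate replicates, and the p-values may be too small. The median SD over all tested probes was 0.181 as labelled and 0.209 with the numbers exchanged.

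**Figure D1:**
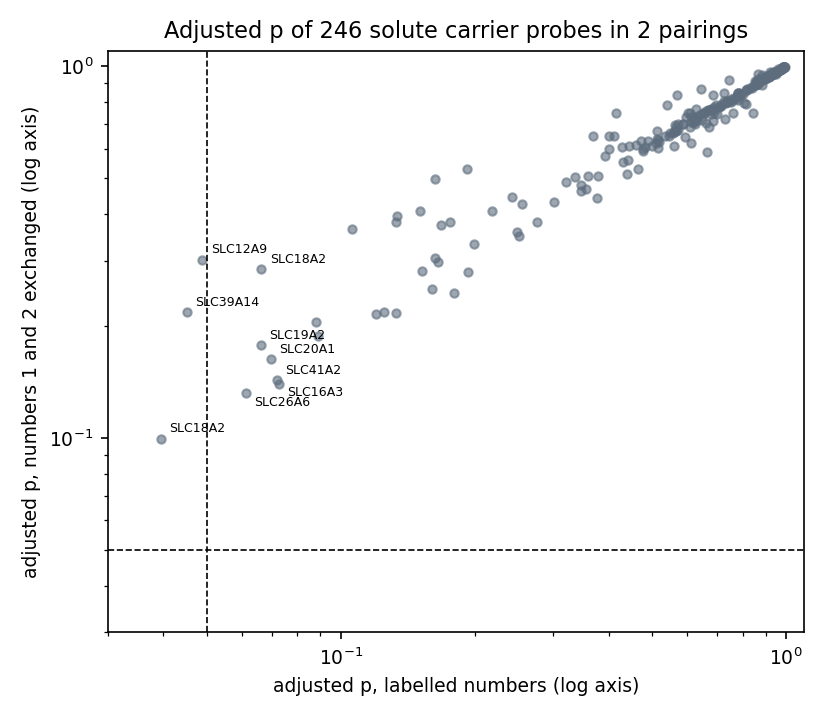
Adjusted p (limma) of the 246 tested carrier probes with the labelled array numbers (x, log axis) and with numbers 1 and 2 exchanged (y, log axis), where each point is a probe and the dashed lines mark 0.05. Probes of SLC18A2, SLC39A14 and SLC12A9 lie left of the vertical line, and no probe lies below the horizontal one.

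The first number in an array's title groups the arrays into sets, and each array holds both groups. Within the sets 140, 141 and 142, SLC18A2 averaged 0.86, 0.83 and 0.77 and SLC39A14 averaged 0.56, 0.37 and 0.48, of similar size in each set. SLC12A9 averaged 0.25, 0.29 and 1.20, and its highest set, 142, holds arrays with 46 hpf in Cy5 only.

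A description that needs no pairing is the sign of the ratio on each array. The ratio was above 0 on all 8 arrays for 6 of the 246 carrier probes (2.44%), against 3.37% of all tested probes, and below 0 on all 8 for 9 (3.66%), against 3.66% of all. The levels at 29.5 hpf all lay above those at 46 hpf for 2 carrier probes, SLC39A14 and SLC41A2 (0.813%, against 0.737% of all tested probes), and all below for 1, SLC19A2 (0.407%, against 0.624% of all). These shares lie near or under those of the whole array. The members below were looked up from their signs after their values were seen, apart from those that the naming rule also gave, and none but SLC18A2 and SLC39A14 passed the test on averaged arrays.

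Among the probes above 0 on every array, SLC41A2, a magnesium carrier, had replicate values of 0.56, 0.59, 0.68 and 1.28 and a mean log2 ratio of 0.78 ± 0.34 (SD, n = 4; limma adjusted p = 0.0719). Its normalised log2 intensities ran from 10.48 over 10.72 to 10.93 at 29.5 hpf and from 9.36 over 9.96 to 10.31 at 46 hpf, so the groups did not overlap. SLC31A2, a relative of the high-affinity copper importer, had 0.42, 0.25, 0.51 and 1.05 and a mean of 0.56 ± 0.35 (SD, n = 4). For both genes replicate 4 was the highest and the other 3 lay close together.

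SLC16A3, the lactate exporter MCT4, had replicate values of 0.26, 0.41, 0.47 and 0.63 and a mean log2 ratio of 0.44 ± 0.15 (SD, n = 4; limma adjusted p = 0.0728). SLC26A6, an exchanger of chloride for bicarbonate and oxalate, had 0.53, 0.65, 0.28 and 0.56 and a mean of 0.50 ± 0.16 (SD, n = 4; limma adjusted p = 0.0613). In both genes the 4 replicates were all above 0 and the levels of the groups overlapped across arrays.

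Among the probes below 0 on every array, SLC20A1, a sodium-coupled phosphate importer, had replicate values of -0.73, -0.80, -0.26 and -0.67 and a mean log2 ratio of -0.61 ± 0.24 (SD, n = 4; limma adjusted p = 0.0697). SLC19A2, a thiamine carrier, had -0.49, -0.56, -0.26 and -0.45 and a mean of -0.44 ± 0.13 (SD, n = 4; limma adjusted p = 0.0661). Its normalised log2 intensities ran from 10.32 over 10.68 to 10.85 at 29.5 hpf and from 10.92 over 11.02 to 11.37 at 46 hpf, with no overlap.

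SLC24A1, a potassium-dependent sodium-calcium exchanger known from rod photoreceptors, had -0.68, -0.37, -1.05 and -0.44 and the lowest mean of any carrier gene, -0.63 ± 0.31 (SD, n = 4; limma adjusted p = 0.088). A single array, number 3 with 46 hpf in Cy5, stood at -1.83, and the other 7 lay between -0.96 and -0.05. SLC30A4 (-0.44), SLC9A7 (-0.30), SLC28A3 (-0.28), SLC1A1 (-0.27) and SLC26A11 (-0.12) were also below 0 on every array, as was a probe of SLC39A9 at -0.25 whose brightest probe lay at 0.22.

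**Figure D2:**
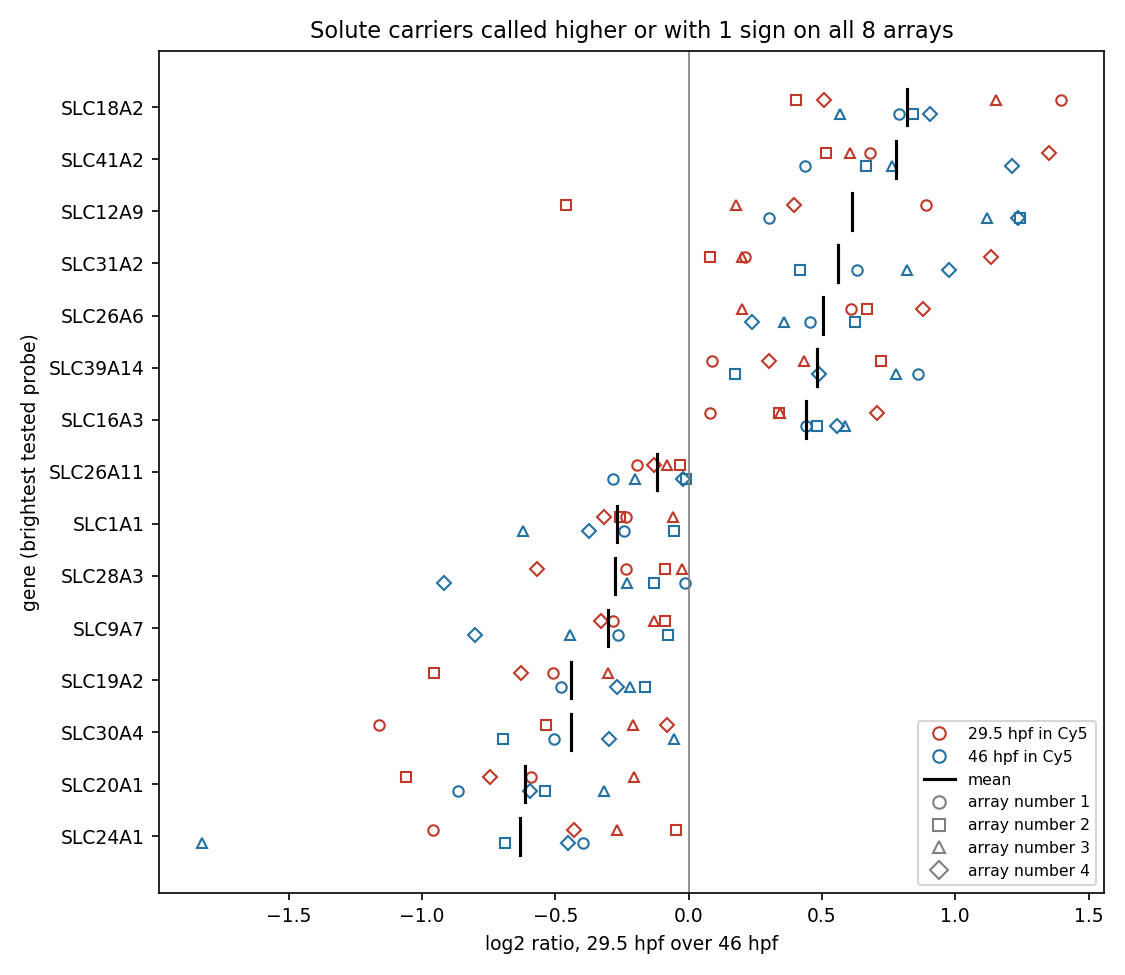
Log2 ratio of 29.5 hpf over 46 hpf on each of the 8 arrays for the carriers called higher or with 1 sign on all arrays (brightest tested probe). Red symbols are arrays with 29.5 hpf in Cy5, blue symbols arrays with 46 hpf in Cy5, symbol shapes the array number and black bars the mean; SLC12A9 alone has an array on the other side of 0, at -0.46.

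**Figure D3:**
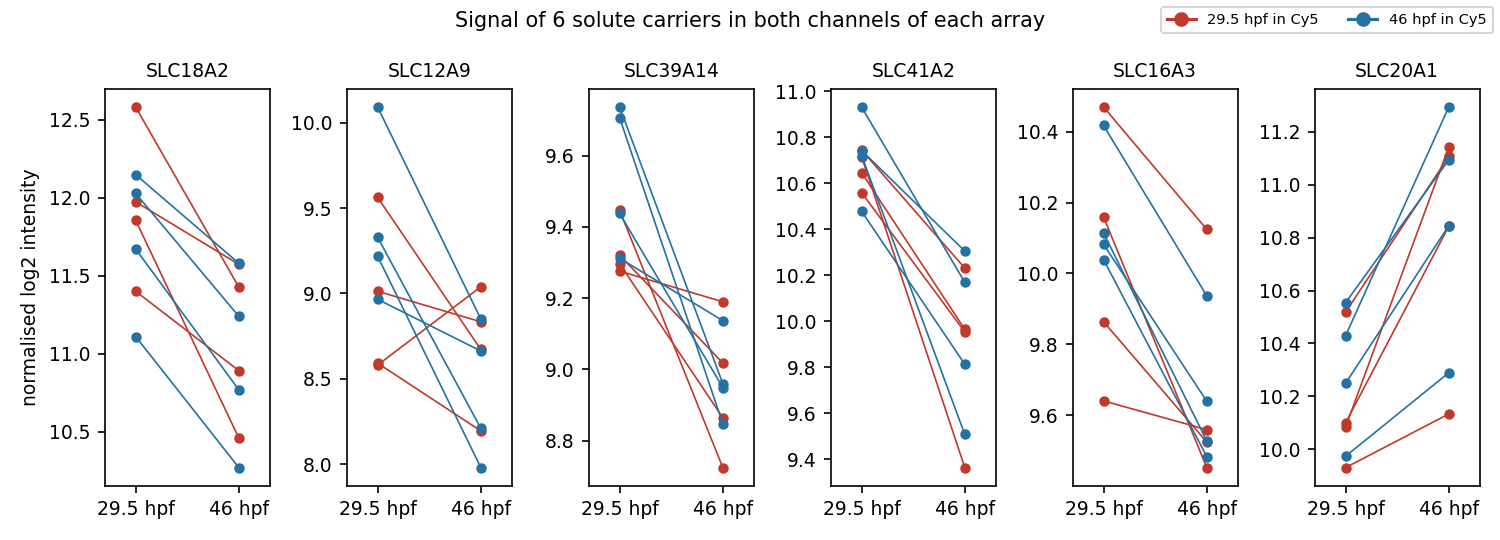
Normalised log2 intensity of 6 carriers in the 29.5 hpf (left) and 46 hpf (right) channel of each array, with a line joining the channels of 1 array. The levels of SLC39A14 and SLC41A2 do not overlap between the groups, and SLC20A1 is dimmer at 29.5 hpf on every array.

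By substrate, the carriers as a whole lay close to the array. The median log2 ratio of the 201 genes was 0.02 against -0.005 over all 12623 tested genes, and 117 carriers (58.2%) were above 0 against 48.7% of all genes. The range was from -0.63 for SLC24A1 to 0.82 for SLC18A2, no carrier reached a ratio of 1 in size, and 9 carriers (4.48%) reached 0.5, against 5.82% of all genes. The median SD over replicates was 0.16 for carrier probes and 0.18 for all tested probes. The 35 tested genes of the mitochondrial SLC25A family had a median of -0.03, with 15 above 0, a range from -0.51 to 0.59 and 0 called by limma.

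**Figure D4:**
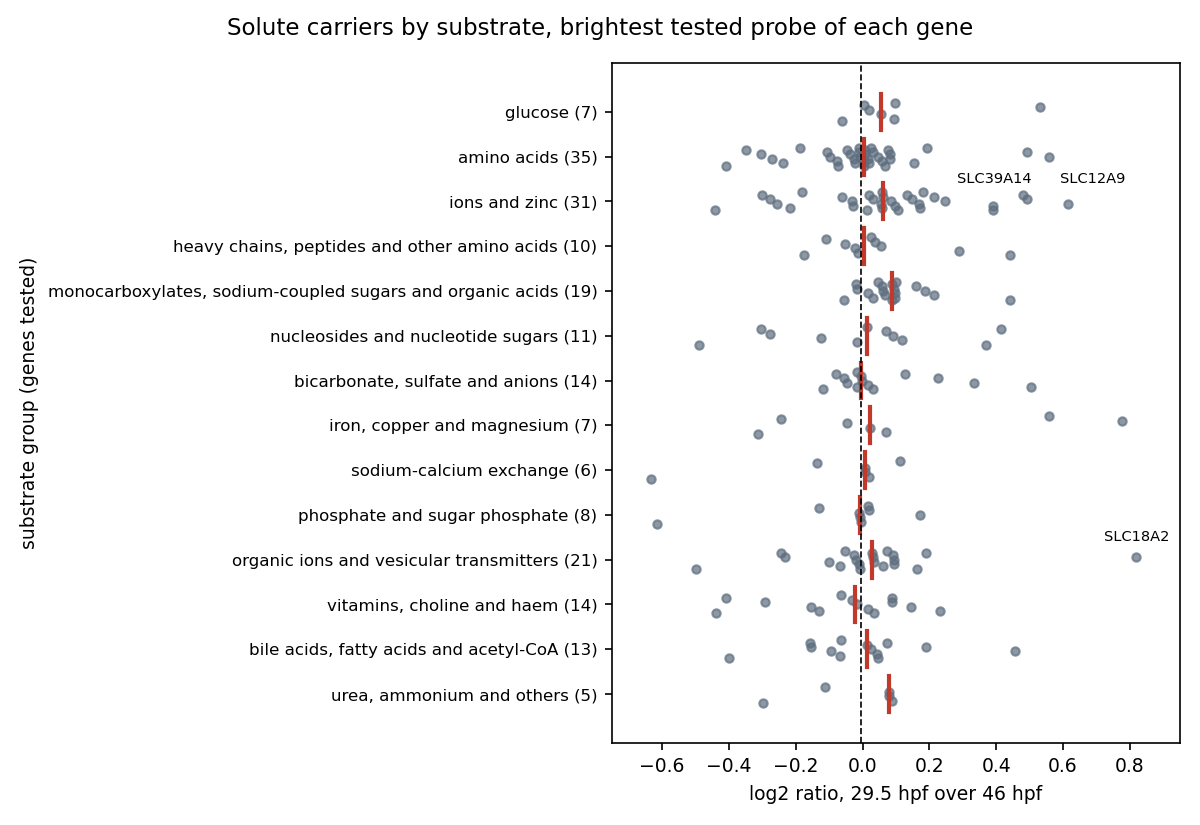
Log2 ratio of 29.5 hpf over 46 hpf for the brightest tested probe of each carrier gene, by substrate group, with the number of genes tested in brackets. Red bars are group medians and the dashed line is the median of all tested genes at -0.005; the names mark the 3 genes past the threshold, all to the right.

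Of the 9 glucose carriers of the SLC2A family, 7 were tested and 0 passed the test. Their median log2 ratio was 0.05, and 6 of 7 were above 0. SLC2A3 (GLUT3), a high-affinity glucose importer, had the highest value, with replicates of 0.36, 0.22, 0.32 and 1.24 and a mean of 0.53 ± 0.47 (SD, n = 4; limma adjusted p = 0.242). Replicate 4 raised the mean, which was 0.30 without it, and the other 3 values lay between 0.22 and 0.36. SLC2A1 (GLUT1), the widespread basal importer, was at 0.10 ± 0.16, SLC2A6, a lysosomal member, at 0.09 ± 0.17, and SLC2A13, a proton-coupled myo-inositol carrier, at 0.05 ± 0.12. SLC2A8, an intracellular member, was the only one below 0, at -0.06 ± 0.12 (SD, n = 4). With median centring in place of loess, 4 of the 7 genes were above 0.

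Of the 43 amino acid carriers of the SLC1A, SLC6A, SLC7A and SLC38A families, 35 were tested and 0 were called in either direction. Their median log2 ratio was 0.003, with 18 above 0 and 17 below, and a range from -0.41 to 0.56. In the authors' deposited values their median was -0.13 against -0.04 for all tested genes, and 13 of 35 were above the all-gene median. The ends of the range were SLC1A4 (ASCT1), an exchanger of small neutral amino acids, at 0.56 ± 0.35, and SLC38A6, a member of the glutamine carrier family, at -0.41 ± 0.23 (SD, n = 4). SLC1A4 had replicates of 0.35, 0.19, 0.76 and 0.94, but 2 of its 8 arrays were below 0. SLC38A11, another member of the glutamine family, lay at -0.30 ± 0.16 and SLC7A2, a cationic amino acid carrier, at -0.35 ± 0.40 (SD, n = 4).

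SLC6A4, the serotonin transporter, falls in this group by its family although serotonin is not an amino acid. Its brightest probe had replicates of 0.39, 0.15, 0.74 and 0.69 and a mean log2 ratio of 0.49 ± 0.28 (SD, n = 4; limma adjusted p = 0.12), with 7 of 8 arrays above 0. Its other probe lay on the opposite side, at -0.22.

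SLC1A1 (EAAC1), which imports glutamate, aspartate and cysteine, had replicate values of -0.24, -0.16, -0.34 and -0.35, and a mean log2 ratio of -0.27 ± 0.09 (SD, n = 4; limma adjusted p = 0.125). All 8 arrays were below 0, though the levels of the groups overlapped, from 7.64 over 8.18 to 8.59 at 29.5 hpf and from 7.88 over 8.44 to 8.86 at 46 hpf.

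The other amino acid carriers known from early embryos did not pass the test. SLC6A9 (GLYT1), the glycine importer that mouse embryos use for volume control, was at 0.08 ± 0.16, and SLC6A6, the taurine carrier, at -0.04 ± 0.08 (SD, n = 4). SLC6A8, the creatine carrier, lay at 0.07 ± 0.29 and SLC1A5 (ASCT2), a glutamine exchanger, at -0.07 ± 0.16. SLC38A2 (SNAT2) and SLC38A1 (SNAT1), sodium-coupled importers of glutamine and other neutral amino acids, lay at -0.19 ± 0.25 and -0.10 ± 0.13 (SD, n = 4).

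SLC7A6, a light chain for cationic and neutral amino acids, was at -0.05 ± 0.45, with replicate 3 at 0.61 and the other 3 below 0. Its heavy chain partner SLC3A2 (4F2hc) was at 0.02 ± 0.30 (SD, n = 4), with replicates of -0.16, -0.07, -0.14 and 0.46. SLC7A1, the main arginine carrier, was above the negative controls on 2 arrays at 29.5 hpf and on 0 at 46 hpf, and SLC7A5 (LAT1), the leucine exchanger, on 3 at 29.5 hpf and 2 at 46 hpf, so neither was tested. SLC38A9, a lysosomal arginine sensor, was not analysed here.

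**Figure D5:**
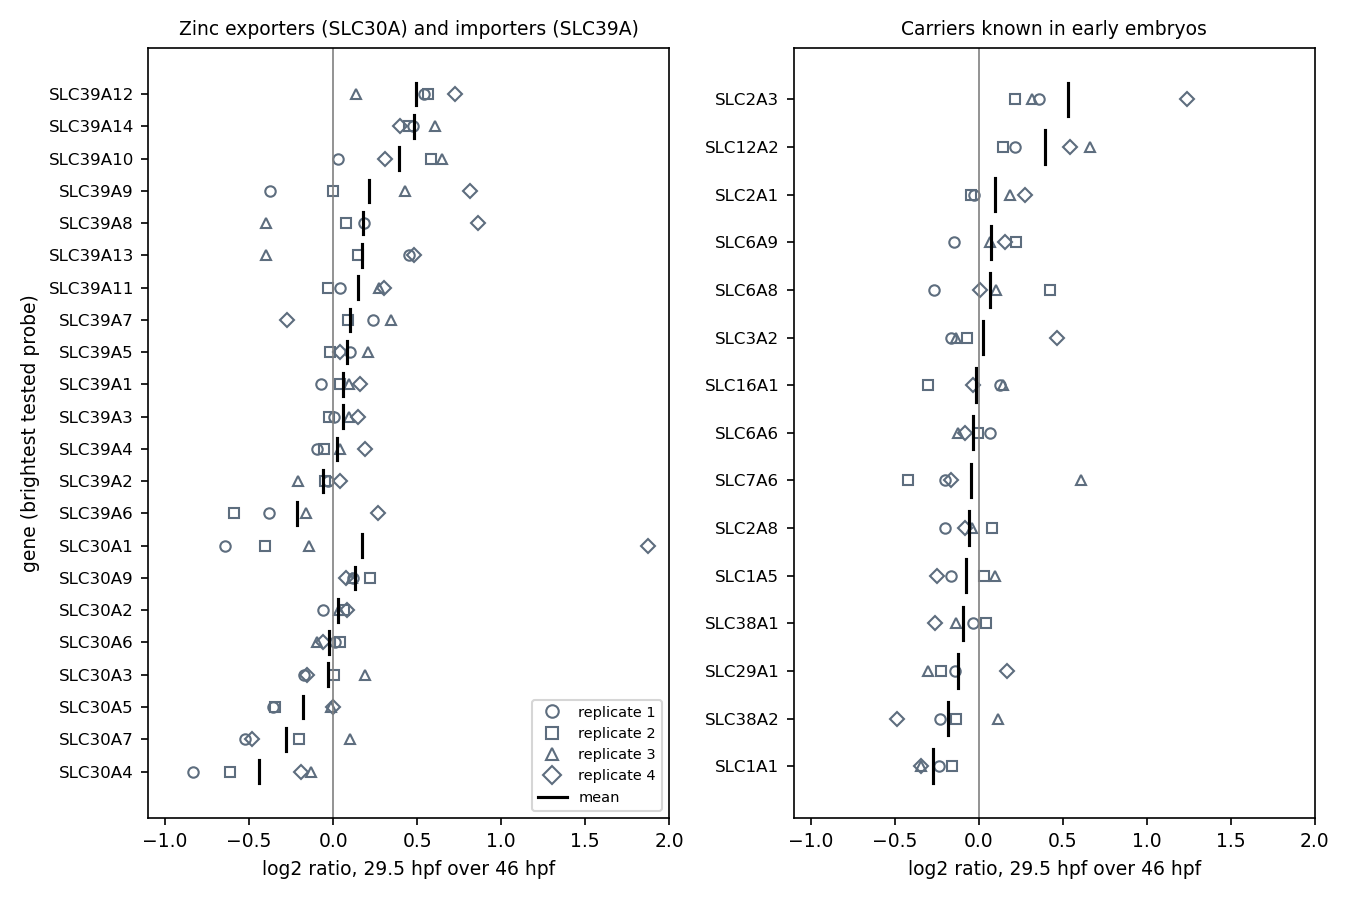
Log2 ratio of 29.5 hpf over 46 hpf in each labelled replicate (symbols) and its mean (bars), for the zinc carriers (left; SLC39A importers above, SLC30A exporters below) and for other carriers known in early embryos (right). Replicate 4 stands apart for SLC30A1 at 1.88 and for SLC2A3 at 1.24.

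Of the 34 carriers of ions and zinc, 31 were tested. Over all 12623 tested genes, 0.895% were called higher in the earlier collection and 0.578% lower. Among the 31 carriers, 2 were called higher (SLC12A9 and SLC39A14) and 0 lower. Their median log2 ratio was 0.06, with 22 of 31 above 0, and 22 of 31 were also above the median of all tested genes with median centring, where the group's own median was -0.04 and that of all genes -0.10. All 14 zinc importers of the SLC39A family were tested. Of these, 12 were above 0, with a median of 0.12, and 13 did not pass the test. With median centring, 7 of the 14 were above 0 and 12 were above the median of all genes.

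After SLC39A14, the highest zinc importers were SLC39A12, known from brain, at 0.49 ± 0.25, and SLC39A10, a plasma membrane importer, at 0.39 ± 0.28 (SD, n = 4). SLC39A12 had replicates of 0.54, 0.57, 0.14 and 0.73, with 7 of 8 arrays above 0. SLC39A10 had 0.03, 0.58, 0.65 and 0.31, with 6 of 8 arrays above 0. SLC39A1, the basal importer of the plasma membrane, lay at 0.06 ± 0.10, and SLC39A9 at 0.22 ± 0.52 (SD, n = 4), with replicates of -0.38, -0.003, 0.43 and 0.82.

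Of the 8 tested SLC30A exporters, 0 passed, 3 were above 0 and the median log2 ratio was -0.03. SLC30A4, which loads zinc into vesicles, had replicates of -0.83, -0.62, -0.13 and -0.19 and a mean of -0.44 ± 0.34 (SD, n = 4; limma adjusted p = 0.199). SLC30A1, the exporter of the plasma membrane, had replicates of -0.64, -0.40, -0.14 and 1.88. Its mean of 0.17 ± 1.15 (SD, n = 4) therefore describes none of the 4 replicates. SLC30A9 was at 0.13 ± 0.06 (SD, n = 4). No test of SLC39A against SLC30A was made.

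SLC12A2 (NKCC1), the importer of sodium, potassium and chloride in volume regulation, had replicates of 0.22, 0.14, 0.67 and 0.54 and a mean log2 ratio of 0.39 ± 0.25 (SD, n = 4; limma adjusted p = 0.163). SLC12A5 (KCC2), a potassium and chloride exporter known from neurons, was at -0.26 ± 0.24. SLC9A7, a sodium or potassium for proton exchanger of the trans-Golgi network, was at -0.30 ± 0.20 (SD, n = 4), with replicates of -0.27, -0.08, -0.29 and -0.56. SLC9A8 and SLC12A4 were not analysed here.

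Of the 30 carriers of monocarboxylates, sodium-coupled sugars and organic acids, 19 were tested and 0 passed. Their median log2 ratio was 0.09, and 16 of 19 were above 0. Above the median of all tested genes were also 16 with median centring, and 17 in the authors' deposited values, but 14 without background correction. Both the 10 SLC16A genes (median 0.10) and the 4 SLC13A genes (median 0.07) lay mostly above 0. In 3 of the 4 replicates the group median was above 0 (0.12, 0.14 and 0.08 in replicates 1, 3 and 4) and in replicate 2 it was -0.02. Beside SLC16A3, described above, SLC5A1 (SGLT1), a sodium-coupled glucose importer, lay at 0.22 ± 0.18 and SLC16A5 at 0.19 ± 0.22 (SD, n = 4). SLC16A1 (MCT1), the widespread carrier of pyruvate and lactate, was at -0.02 ± 0.21 (SD, n = 4), with 4 arrays on each side of 0.

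Among carriers of organic ions and vesicular transmitters, 21 of 29 were tested, 1 was called higher in the earlier collection (SLC18A2) and 0 lower. The shares over all tested genes were 0.895% higher and 0.578% lower. SLC22A5 (OCTN2), the carnitine importer, had replicates of -0.43, -0.22, -0.60 and -0.75 and a mean log2 ratio of -0.50 ± 0.23 (SD, n = 4; limma adjusted p = 0.0891), with 7 of 8 arrays below 0. SLC17A8, a vesicular glutamate carrier, was at -0.24 ± 0.17 (SD, n = 4).

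Among carriers of iron, copper and magnesium, 7 of 8 genes were tested and 0 passed. SLC41A2 and SLC31A2, given above, were the highest. SLC11A2 (DMT1), the importer of ferrous iron, was among the lowest at -0.31 ± 0.17 (SD, n = 4), with 7 of 8 arrays below 0. The next-brightest probe of SLC11A2 lay on the other side of 0, at 0.06. Of the 14 tested carriers of vitamins, choline and haem, 0 passed and 6 were above 0. After SLC19A2, SLC44A3, a choline transporter-like protein, was at -0.41 ± 0.27 and SLC23A1, a vitamin C importer, at -0.29 ± 0.21 (SD, n = 4).

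Of 12 carriers of nucleosides and nucleotide sugars, 11 were tested and 0 passed. The nucleotide sugar carriers of the SLC35A family lay on both sides of 0, with SLC35A5 at -0.49 ± 0.33, SLC35A1, the Golgi carrier of CMP-sialic acid, at -0.31 ± 0.25, and SLC35A2, that of UDP-galactose, at 0.37 ± 0.23 (SD, n = 4). SLC29A1 (ENT1), an equilibrative nucleoside carrier, lay at -0.12 ± 0.21 (SD, n = 4).

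None of the 14 tested carriers of bicarbonate, sulfate and anions passed. After SLC26A6, the smallest p-values were those of SLC4A2 (AE2), a chloride-bicarbonate exchanger, at 0.23 ± 0.22, and SLC4A7, a sodium-bicarbonate importer, at 0.33 ± 0.41 (SD, n = 4). Of 8 phosphate and sugar phosphate carriers, all were tested and 0 passed. SLC20A1 was the lowest of them, and SLC37A4, the glucose-6-phosphate carrier of the endoplasmic reticulum, was at -0.13 ± 0.21 (SD, n = 4), while SLC37A1 was at 0.17 ± 0.16.

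In the remaining groups 0 genes passed. Of 10 tested heavy chains and carriers of peptides and other amino acids, SLC15A4, a lysosomal carrier of peptides and histidine, was highest at 0.44 ± 0.32 (SD, n = 4), with 7 of 8 arrays above 0, and SLC43A2, a leucine carrier, was at 0.29 ± 0.30. SLC43A3 was at -0.11 ± 0.05 (SD, n = 4). Of 13 carriers of bile acids, fatty acids and acetyl-CoA, SLC10A4 was at -0.40 ± 0.28, SLC27A2, a very-long-chain acyl-CoA synthetase, at 0.46 ± 0.44 and SLC10A6 at -0.15 ± 0.18 (SD, n = 4).

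Among 6 sodium-calcium exchangers after SLC24A1, SLC8A1 (NCX1) was at -0.14 ± 0.53 and SLC24A6, now called SLC8B1 and found in mitochondria, at 0.11 ± 0.22 (SD, n = 4). Of 5 carriers of urea, ammonium and others, SLC14A1, a urea channel, was at 0.09 ± 0.11, SLC45A2 at -0.11 ± 0.14 and SLC45A4 at -0.30 ± 0.52 (SD, n = 4).

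Lists of pumps, carrier partners and regulators, amino acid sensing on the lysosome and zinc buffering were set beside the carriers and gave 1 call. Of all tested genes, 0.895% were called higher in the earlier collection and 0.578% lower. Of 19 tested carrier partners and regulators, 1 was called higher and 0 lower. It was NPTN, neuroplastin, a chaperone of monocarboxylate carriers and calcium pumps, with replicates of 0.95, 0.63, 1.24 and 0.83 and a mean log2 ratio of 0.91 ± 0.26 (SD, n = 4; limma adjusted p = 0.0409). With numbers 1 and 2 exchanged its limma adjusted p was 0.0996.

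The list of sodium and proton pumps, which make the gradients that carriers use, had 17 tested genes. The only one of the sodium pump was ATP1B3, one of its subunits. The others were subunits or accessory proteins of the vacuolar proton pump. Of the 17 genes 0 passed, and their median log2 ratio was -0.04. ATP6V1A, the catalytic subunit of the vacuolar proton pump, had the smallest p, at 0.59 ± 0.20 (SD, n = 4; limma adjusted p = 0.0597), with 1 sign on all 8 arrays. Of 27 tested genes of amino acid sensing on the lysosome, 0 passed and the median was 0.003. The lowest was RRAGD, a Rag GTPase, at -0.75 ± 0.25 (SD, n = 4). The highest was FLCN, the folliculin that acts on Rag GTPases, at 0.81 ± 0.36 (SD, n = 4). Both were among 5 of the 27 genes with 1 sign on all 8 arrays. Of all 12623 tested genes, 514 were above 0 and 489 below 0 on all 8 arrays. Of 6 tested zinc-buffering genes 0 passed, with a median of 0.15, and the metallothionein MT1A was at 0.30 ± 0.13 (SD, n = 4). The genes named from these lists were picked after their values were seen.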

How the data were processed

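Embryo RNA was measured on 8 two-colour arrays. Per the file headers, the scanner files give linear intensity: a spot mean and a local background median for Cy3 (532 nm) and for Cy5 (635 nm), before any normalization. A deposited table holds the authors' log2 ratios, and how they were normalized is not given in the sources used. It served only as an alternative. RNA was amplified by T7 transcription, per the labels' protocols.

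Here normexp (offset 50) corrected the background and loess normalized each array, with control spots and spots left out by the image software at weight 0 (limma 3.58.1, R 4.3.3). A probe was above background when it exceeded the mean plus 2 SD of the 153 negative controls of its array and channel. Ratios were turned to 29.5 hpf over 46 hpf and averaged by replicate number, and limma's lmFit and eBayes tested the mean of 4 replicates against 0, two-sided, adjusted by Benjamini-Hochberg across 32989 probes, with 0.05 as the threshold. Intensities per channel are those after loess and quantile scaling of the average intensity. P-values measure the spread between labelled replicates, and the labels do not say how many embryos or cultures each came from. The test was tried on simulated data with 4 independent replicates. Such data cannot show whether the p-values hold where labelled averages may not be separate replicates.

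Symbols are those of the platform annotation, set against RefSeq's gene table of assembly ARS-UCD2.0. No sequence or coordinate was used. The members, substrate groups, partner lists, tests and naming rule were chosen with earlier results of these data known. Named genes were those past the threshold with their other probes, the genes of smallest p in each substrate group (5 for glucose, 8 for amino acids, 8 for ions and zinc, 3 for every other group), and 26 carriers known from early embryos, of which 22 had a probe. The alternatives changed the background correction, normalization or filter, used the deposited values, paired or blocked the arrays differently, added a dye term, another variance model or array weights, left out a replicate, or took all tested probes of a gene.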

Additional observations from a re-analysis of the deposited data

Results flagged for a closer look

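Each named carrier's 4 replicate values were examined for 1 value far from the others, by the gap to the nearest value over the whole range and Dixon's critical value at the 95% level. Of 68 genes 2 exceeded it, and chance alone gives about 1 in 20. SLC2A3 had a gap of 0.864 of its range, with replicate 4 at 1.24 and the others between 0.22 and 0.36. SLC3A2 had a gap of 0.846, with replicate 4 at 0.46 and the others between -0.16 and -0.07. Both arrays of replicate 4 were above 0 for SLC3A2, at 0.40 with 29.5 hpf in Cy5 and 0.53 with 46 hpf in Cy5.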

How the results depend on the processing

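Carrier probes called higher numbered 3, and 0 were lower. None was called, in either direction, with median centring, with scaling between arrays, with the authors' deposited values, with numbers 1 and 2 exchanged, with a trended and robust variance model, or without replicate 1, 2, 3 or 4 (a range of 0 to 0). At an unadjusted p under 0.05 these settings gave 19.5%, 13.8%, 14.6%, 11.8% and 13% of carrier probes, against 19.8%, 16.5%, 14.6%, 12.4% and 11.9% of all tested probes, and with a replicate left out 11.8% to 16.7% against 12.2% to 15.9%. Calls over all tested probes were also 0 in both directions with median centring, scaling, the trended and robust model, and each replicate left out. The deposited values gave 38 higher and 13 lower over all tested probes, and the exchanged numbers 4 and 0. The left-out fits have fewer samples, and for the other settings the cause was not tested.

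With the replicate block, a random block over the 8 arrays in place of averaging, 7 were higher and 4 lower, with 820 and 821 over all tested probes. With that block and a dye term 5 were higher and 3 lower (568 and 560 over all), and with the title number as a block 11 and 9 (1399 and 1497 over all). With the exchanged numbers as block, chosen after seeing the data, 6 were higher and 2 lower, 8 in all against 0 when those arrays were averaged, where all tested probes had 556 higher and 519 lower against 4 and 0. SLC18A2 passed under all 4 blocks, SLC12A9 under none, and SLC39A14 under all but that with the dye term (limma adjusted p = 0.0578). The number did not pair all arrays: deviations from the array mean correlated at -0.28, -0.19, 0.29 and 0.50 for numbers 1 to 4.

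Carrier calls without background correction numbered 4, without a filter 2, with a stricter filter 3 and with array weights 2, all higher. Over all tested probes these settings gave 345 higher and 271 lower, 151 and 146, 292 and 243, and 146 and 128. The carrier genes called differed. SLC12A9 lost its call without background correction, without a filter and with array weights (limma adjusted p = 0.0502, 0.0566 and 0.0803). SLC41A2 gained one without background correction (0.0464). The 68 named genes gave 1146 recomputed values. SLC18A2, SLC12A9 and SLC39A14 kept their sign in every setting, but some uncalled genes did not. With median centring SLC2A1, SLC2A6 and SLC30A9 went from 0.10, 0.09 and 0.13 to -0.17, -0.16 and -0.18. SLC30A1 went from 0.17 to -0.40 without replicate 4. Signal close to the controls limits the dim probes, and 8 arrays limit all of them.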

Other observations

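Probes of 1 carrier gene often differed. Of the 31 carrier genes with at least 2 tested probes, the brightest and the next probe had the same sign in 19, and the range over a gene's probes had a median of 0.20 on the log2 scale. It exceeded 0.5 for 3 genes, looked up after their values were seen: 0.94 for SLC18A2, 0.72 for SLC6A4 and 0.60 for SLC12A9. Among the genes described above, the next probe had the opposite sign for SLC11A2 (0.06), SLC23A1 (0.07), SLC16A1 (0.16) and SLC4A7 (-0.03). It also did for SLC2A1 (-0.10), SLC6A9 (-0.025), SLC39A9 (-0.02) and SLC6A4 (-0.22). The probes' positions in the transcripts were not used here.

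Of the 250 carriers 49 had no probe above background often enough to be tested. Among these, chosen after their values were seen, were 7 of the 12 sodium-coupled carriers of the SLC5A family and 7 of the 15 organic ion carriers of the SLC22A family, while all 14 SLC39A zinc importers and all 5 SLC12A members on the array were tested.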
